A study of Homo sapiens with 18 samples.

Results

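Laminins, perlecan and agrin are building blocks of the basement membrane, the thin sheet of matrix on which epithelial cells sit. The 9 genes described here were chosen by name: the laminin chain genes LAMA3, LAMA4, LAMA5, LAMB1, LAMB2, LAMB3 and LAMC1, the perlecan gene HSPG2 and the agrin gene AGRN. Each of the 9 was found in all 3 deposited expression tables, of which 2 list 58735 genes and the third, the MITD1 table, 29928. Membership was set by gene name, not by a threshold on measured values, though with earlier results of these data known.

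RNA was sequenced from 786-O, an established line of human clear cell renal carcinoma that lacks functional VHL, in 18 libraries of 6 groups with 3 libraries each. RBCK1, a subunit of the ligase that makes linear ubiquitin chains, was knocked down with a short hairpin (shRBCK1) and set against shcontrol. ANKRD35 was knocked down in the group titled siANKRD35 and set against sicontrol_for_siANKRD35; the columns of this knockdown are headed ShRNA, so the reagent cannot be told from the sources. MITD1, which acts at the end of cell division, was knocked down in siMITD1 and set against sicontrol_for_siMITD1. All groups are labelled 786-O, and all were grown in RPMI-1640 with fetal bovine serum. The hairpin and siRNA sequences, the time after knockdown and whether the libraries of a group came from separate cultures are not in the sources used here, so p-values measure the spread between these libraries.

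A laminin is a trimer of an alpha, a beta and a gamma chain, joined by a coiled coil inside the cell and secreted whole; the alpha chain carries most of the sites that bind cells. LAMA3 pairs with LAMB3 in the laminin that anchors skin epithelium, while LAMA5 with LAMB1 or LAMB2 and LAMC1 forms the laminins of adult tubules and glomeruli. Nidogens, perlecan and agrin tie the laminin sheet to type IV collagen and to the cell surface, and perlecan and agrin also carry heparan sulfate chains that hold growth factors.

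The libraries were first checked against their labels. RBCK1 measured 30.8, 32.0 and 32.9 FPKM (reads scaled to gene length and library size) in shRBCK1, against 487, 492 and 462 FPKM in shcontrol. It was far lower than in shcontrol in the other controls, at 70.8 ± 2.44 FPKM for siANKRD35 and 65.5 ± 0.960 FPKM for siMITD1 (SD, n = 3 each). Why shcontrol stood higher was not tested, and its RBCK1 level is not that of the other controls labelled 786-O. ANKRD35 measured 0, 0 and 0.0332 FPKM in siANKRD35, against 753, 687 and 742 FPKM in its control, while it was at or under 0.0392 FPKM in every library of the other tables. The siANKRD35 libraries thus stood at the level of the other groups labelled 786-O, and their own control stood far above it. Why this control stood higher was not tested. MITD1 measured 2.43, 2.66 and 3.03 FPKM in siMITD1, against 7.16, 7.42 and 7.83 FPKM in its control. The RBCK1 gene itself was also higher in siMITD1, at 94.5 ± 2.43 FPKM against 65.5 ± 0.960 FPKM in its control (SD, n = 3 each). Of 10 genes typical of clear cell renal carcinoma lines, 8 averaged at least 1 FPKM in each group of the RBCK1 and MITD1 tables and 6 in both groups of the ANKRD35 table, where CDH6 was listed at 0; CA9 stayed at or under a mean of 0.416 FPKM in every group. The ANKRD35 table stood apart: over 12068 genes its group means correlated at 0.764 to 0.825 with the groups of the other tables, while RBCK1-table and MITD1-table groups correlated at 0.889 to 0.914 with each other. The summed level of 9 fibroblast markers was 35.2 to 44.5 FPKM in siANKRD35 and 34.9 to 37.9 FPKM in its control, nearly all of it THY1, and at or under 5.10 FPKM elsewhere, with COL1A2 and DPT under 0.01 FPKM in all 6 groups. Summed endothelial markers stayed at or under 0.767 FPKM, and summed blood cell markers at or under 5.13 FPKM. Comparisons were therefore made within a table, and levels set across tables carry separate normalizations and, for the ANKRD35 table, a different profile under the same label. In bulk RNA, fewer expressing cells and less RNA per cell cannot be told apart. Reads summed over genes came to 16346478 to 18648246 per library in the RBCK1 table, 17502646 to 19034974 in the ANKRD35 table and 12707810 to 13892560 in the MITD1 table. The MITD1 sums are partial, because reads could be recovered there for only 92.6% of 18028 expressed genes. The 8 members above the filter were backed by 828 to 14476 reads per library in the RBCK1 table and 210 to 13561 in the ANKRD35 table. In the MITD1 table reads could be recovered for 6 of the 8, at 781 to 11632 per library.

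The start regions of 8 of the 9 genes were available as RefSeq windows (GRCh38.p14) of 250 bases before to 50 bases after an annotated start site, 10 windows in all; AGRN had none. Shown are the 2 windows with an AP-1 motif (TGANTCA), in LAMA3 and LAMB3, whose products pair in a trimer, and those of LAMC1, the gamma chain of most laminins, and HSPG2, the member called lower in all 3 comparisons, both of which hold the GC box (GGGCGG). They are written on the gene's strand, 5′ to 3′, with motif matches on either strand in capitals; GC boxes that overlap run together. The LAMA3 window is chr18:23872770-23873069 (+), at a start site 183577 bases inside the gene, the third LAMB3 window is chr1:209651325-209651624 (−), at a start site 1092 bases inside it, the LAMC1 window is chr1:183023170-183023469 (+) and the HSPG2 window is chr1:21937261-21937560 (−).
LAMA3: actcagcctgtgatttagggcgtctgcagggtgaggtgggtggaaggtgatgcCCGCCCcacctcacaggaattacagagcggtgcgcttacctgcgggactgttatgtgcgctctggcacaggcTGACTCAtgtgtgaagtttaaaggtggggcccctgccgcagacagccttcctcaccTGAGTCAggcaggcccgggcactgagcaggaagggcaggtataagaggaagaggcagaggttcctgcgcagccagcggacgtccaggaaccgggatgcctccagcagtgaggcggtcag
LAMB3: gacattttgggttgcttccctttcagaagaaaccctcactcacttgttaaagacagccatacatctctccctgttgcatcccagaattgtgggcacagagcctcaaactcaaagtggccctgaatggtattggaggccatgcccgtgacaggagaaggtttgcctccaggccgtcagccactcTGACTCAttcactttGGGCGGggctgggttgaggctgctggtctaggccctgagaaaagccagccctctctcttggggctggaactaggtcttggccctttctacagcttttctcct
LAMC1: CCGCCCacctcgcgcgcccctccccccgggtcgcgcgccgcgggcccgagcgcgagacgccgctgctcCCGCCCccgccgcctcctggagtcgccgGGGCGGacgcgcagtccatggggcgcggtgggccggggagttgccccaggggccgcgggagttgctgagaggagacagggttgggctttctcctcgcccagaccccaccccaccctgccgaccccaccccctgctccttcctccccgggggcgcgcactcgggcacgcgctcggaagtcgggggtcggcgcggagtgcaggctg
HSPG2: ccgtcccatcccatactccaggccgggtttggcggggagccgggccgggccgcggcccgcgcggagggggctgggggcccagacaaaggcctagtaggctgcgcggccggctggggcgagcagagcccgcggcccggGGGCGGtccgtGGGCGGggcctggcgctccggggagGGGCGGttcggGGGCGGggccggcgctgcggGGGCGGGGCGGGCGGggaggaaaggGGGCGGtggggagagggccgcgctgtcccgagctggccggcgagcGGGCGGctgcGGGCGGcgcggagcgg

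The LAMA3 window held 2 AP-1 motifs and 1 GC box, and the LAMB3 window held 1 of each. The LAMC1 window held 3 GC boxes and the HSPG2 window 10, in sequence of 79.0% and 83.3% GC, against 61.7% GC in the LAMA3 window and 53.7% in the LAMB3 window. LAMA5 and LAMB1 had 5 and 4 GC boxes in their windows, while LAMA4 had none. Every one of the 10 windows but that of LAMA4 held at least 1 GC box, so the motif does not set LAMC1 and HSPG2 apart. The TEAD motif (GGAATG) was in none of the 10 windows. Of 35116 windows of the same length, 7.7% held the AP-1 motif, 14.0% the TEAD motif and 45% a GC box, both strands searched; a match is a run of letters and not a bound site.

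The baseline of the family was read from the control groups on the FPKM scale, which is per gene length. In shcontrol the highest member was LAMB3, the beta chain that pairs with LAMA3, at 92.1 ± 2.39 FPKM (SD, n = 3, as for the means that follow). LAMB1 at 86.2 ± 0.357, AGRN at 79.7 ± 0.878 and LAMC1 at 69.5 ± 0.937 FPKM came next, and the per-library ranges of these 4 did not overlap. HSPG2 at 24.0 ± 0.619, LAMB2 at 20.6 ± 0.767 and LAMA3 at 16.8 ± 0.373 FPKM formed a middle tier, and LAMA5 at 3.56 ± 0.190 FPKM was lowest of the 8 tested. In the control of siMITD1 the order began with LAMC1 at 89.8 ± 0.516 FPKM, then LAMB1 at 54.5 ± 1.44, AGRN at 47.7 ± 1.73 and LAMB3 at 26.5 ± 0.590 FPKM. LAMB2 at 21.4 ± 0.550, HSPG2 at 19.1 ± 0.469 and LAMA3 at 14.9 ± 0.534 FPKM followed, and LAMA5 was again lowest of the 8, at 5.18 ± 0.0842 FPKM.

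In the control of siANKRD35 the order was LAMC1 at 82.6 ± 0.237, LAMB1 at 38.2 ± 0.390 and AGRN at 37.7 ± 0.434 FPKM, where the last 2 overlapped between libraries. LAMB2 measured 13.4 ± 0.367, LAMB3 7.81 ± 0.161, HSPG2 5.77 ± 0.260, LAMA5 3.37 ± 0.0821 and LAMA3 3.34 ± 0.122 FPKM, with the ranges of the last 2 overlapping. Of the nidogens, which link laminin to collagen, NID1 at 25.5 ± 0.308 FPKM exceeded NID2 at 1.81 ± 0.204 FPKM in the control of siANKRD35, whereas in shcontrol NID1 measured 0.229 ± 0.0334 and NID2 29.4 ± 0.819 FPKM.

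LAMA4, the alpha chain of vessel walls and muscle (chromosome 6, 112108760 to 112254939, minus strand), was close to 0 everywhere: it averaged 0.0680 FPKM in shRBCK1 and 0.0668 FPKM in shcontrol, with 7 to 20 reads per library, at most 2 reads per library in the ANKRD35 table and 3 to 18 in the MITD1 table. It passed the filter of at least 1 FPKM in at least 3 of 6 libraries in no table and was not tested; the other 8 passed in all 3 tables.

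**Figure D1:**
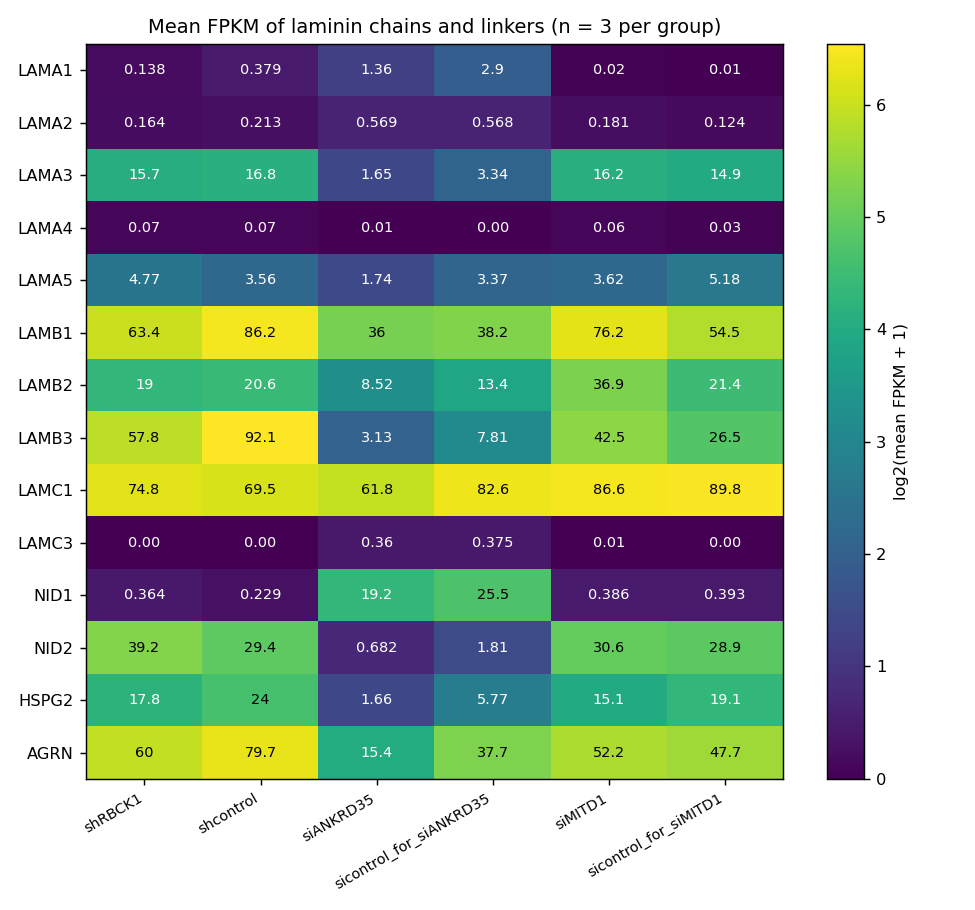
Mean FPKM (n = 3 libraries) of the members, of LAMA1, LAMA2 and LAMC3 and of the nidogens NID1 and NID2 in the 6 groups, each knockdown left of its control, with colour on a log2(mean FPKM + 1) scale. LAMC1 and LAMB1 lead in both MITD1-table groups, and the 2 ANKRD35-table columns differ from the rest in low LAMA3, LAMB3, HSPG2 and NID2 and high NID1.

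**Figure D2:**
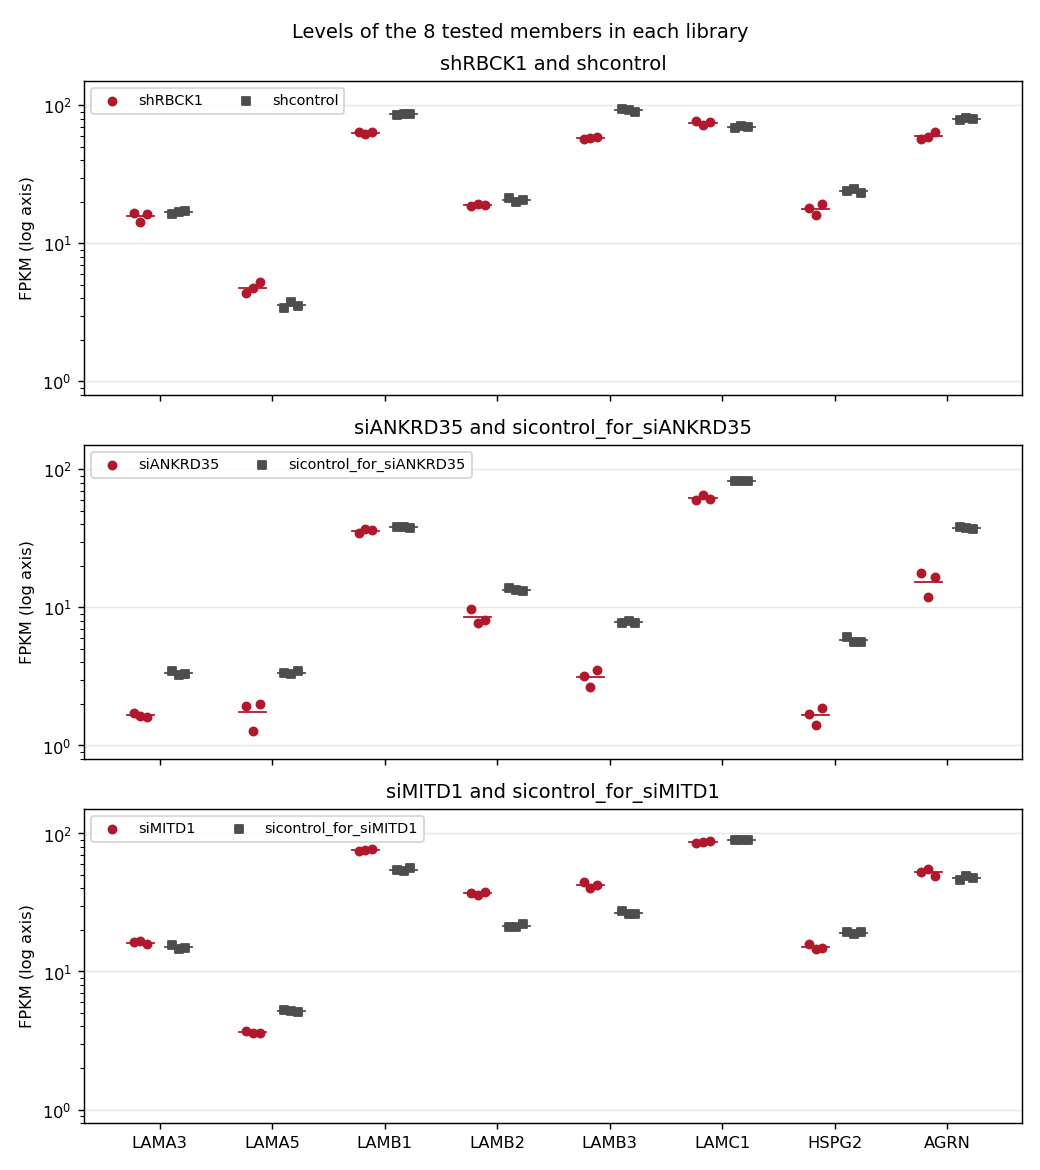
FPKM (log axis) of the 8 tested members in each of the 18 libraries, one panel per table, with circles for knockdown and squares for control libraries and short lines for group means. The siANKRD35 circles lie below the control squares for all 8 members, and siMITD1 circles lie above for LAMB1, LAMB2 and LAMB3.

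Knockdown of RBCK1 was accompanied by lower beta chains and lower perlecan and agrin. Of the 8 members tested, 5 fell (LAMB1, LAMB2, LAMB3, HSPG2 and AGRN), 2 rose (LAMA5 and LAMC1) and LAMA3 did not pass the test. Among all 12227 genes tested 49.1% were called at an adjusted p under 0.05, 24.1% higher and 24.9% lower. The members' median change was −0.26 on the log2(FPKM + 1) scale, against 0.01 over all genes tested, and 7 of 8 had groups that did not overlap, which held for 59% of all genes.

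LAMB3, at chromosome 1, 209614870 to 209652466 (minus strand, 4688 bases of exon), measured 56.6, 58.1 and 58.6 FPKM in the shRBCK1 libraries, against 94.1, 92.8 and 89.5 FPKM in the shcontrol libraries. Every knockdown library lay under every control library, and the mean fell by 37.3%. The log2 change of −0.66 ± 0.0322 (SE; limma adjusted p = 4.67e-06) was the most negative of the 8 in this comparison. LAMB1, the widespread beta chain (chromosome 7, 107923799 to 108003255, minus strand), measured 64.3, 62.2 and 63.8 FPKM in the shRBCK1 libraries, against 85.8, 86.5 and 86.3 FPKM in the shcontrol libraries. These groups were also apart, with a change of −0.44 ± 0.0281 (SE; limma adjusted p = 2.10e-05). LAMB2, the beta chain of glomerulus and neuromuscular junction (chromosome 3, 49121114 to 49133118, minus strand), measured 18.6, 19.4 and 19.0 FPKM in the shRBCK1 libraries, against 21.4, 19.9 and 20.5 FPKM in the shcontrol libraries. The groups did not overlap, but the gap was narrow and the change of −0.11 ± 0.0382 (SE; limma adjusted p = 0.0447) lost its call in 12 of 14 alternative settings, with adjusted p-values of 0.0457 to 0.468.

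LAMA5, the broad alpha chain of adult epithelia (chromosome 20, 62307955 to 62367312, minus strand), measured 4.38, 4.72 and 5.23 FPKM in the shRBCK1 libraries, against 3.40, 3.77 and 3.52 FPKM in the shcontrol libraries. It was higher in each knockdown library than in any control library, with a change of 0.34 ± 0.0672 (SE; limma adjusted p = 0.00482). Some exon bases, 244 of 14291, are shared with ADRM1, a proteasome subunit on the other strand, which fell to 69.5 ± 3.08 FPKM in shRBCK1, against 96.4 ± 0.504 FPKM in shcontrol; since the strand used for counting is not stated, up to 1.19 FPKM of LAMA5 in shRBCK1 and 1.65 FPKM in shcontrol could be such reads if ADRM1 is covered evenly. LAMA3, the alpha chain that pairs with LAMB3 (chromosome 18, 23689443 to 23956222, plus strand), measured 16.7, 14.3 and 16.2 FPKM in the shRBCK1 libraries, against 16.4, 16.8 and 17.1 FPKM in the shcontrol libraries. The groups overlapped, and the change was −0.09 ± 0.0572 (SE; limma adjusted p = 0.238) with a 95% interval −0.22 to 0.05.

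LAMC1, the most widely used gamma chain (chromosome 1, 183023460 to 183145592, plus strand), measured 77.1, 71.9 and 75.4 FPKM in the shRBCK1 libraries, against 68.7, 70.6 and 69.3 FPKM in the shcontrol libraries. The change of 0.10 ± 0.0346 (SE; limma adjusted p = 0.0414) was small and lost its call in 7 of 14 settings, with adjusted p-values of 0.000217 to 0.111. HSPG2, which encodes perlecan (chromosome 1, 21822245 to 21937297, minus strand, 18104 bases of exon), measured 18.1, 16.0 and 19.4 FPKM in the shRBCK1 libraries, against 24.1, 24.6 and 23.4 FPKM in the shcontrol libraries. AGRN, which encodes agrin (chromosome 1, 1020123 to 1056118, plus strand), measured 56.8, 59.1 and 64.0 FPKM in the shRBCK1 libraries, against 78.9, 80.6 and 79.5 FPKM in the shcontrol libraries. Both heparan sulfate proteoglycans were thus lower by about the same amount, with changes of −0.42 ± 0.0662 (SE, adjusted p = 0.00175) for HSPG2 and −0.40 ± 0.0453 (SE, adjusted p = 0.000318) for AGRN.

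In the siANKRD35 libraries the family was lower nearly throughout. Of the 8 members tested, 7 fell, 0 rose and LAMB1 did not pass the test, except with quantile normalization, under which all 8 were called lower. Over all 11890 genes tested 36.3% were called, 16.9% lower and 19.4% higher. The median change of the members was −0.70 on the log2(FPKM + 1) scale, against 0.03 over all genes, and the groups of all 8 did not overlap, which held for 52.2% of all genes. The 7 were also called lower when siANKRD35 replicate 2, the library farthest from its group, was left out.

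HSPG2 measured 1.70, 1.41 and 1.86 FPKM in the siANKRD35 libraries, against 6.07, 5.64 and 5.61 FPKM in the control libraries. The mean fell by 71.3%, with a log2 change of −1.35 ± 0.0911 (SE; limma adjusted p = 0.000516). AGRN measured 17.7, 11.8 and 16.6 FPKM in the siANKRD35 libraries, against 38.1, 37.9 and 37.2 FPKM in the control libraries. Replicate 2 of the knockdown was the lowest, and the change was −1.26 ± 0.141 (SE; limma adjusted p = 0.0017), or −1.09 without that replicate. LAMB3 measured 3.16, 2.67 and 3.54 FPKM in the siANKRD35 libraries, against 7.68, 7.99 and 7.77 FPKM in the control libraries. Its groups were far apart relative to their spread, with a change of −1.10 ± 0.0950 (SE; limma adjusted p = 0.000855).

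Among the alpha chains, LAMA3 measured 1.71, 1.64 and 1.60 FPKM in the siANKRD35 libraries, against 3.47, 3.24 and 3.30 FPKM in the control libraries, a tight spread in both groups. LAMA5 measured 1.94, 1.28 and 1.99 FPKM in the siANKRD35 libraries, against 3.37, 3.29 and 3.45 FPKM in the control libraries. The changes were −0.71 ± 0.0747 (SE, adjusted p = 0.0014) for LAMA3 and −0.69 ± 0.1202 (SE, adjusted p = 0.00615) for LAMA5. ADRM1, which shares exon bases with LAMA5 on the other strand, measured 109.7 ± 20.3 FPKM in siANKRD35, against 85.2 ± 3.92 FPKM in the control (SD, n = 3 each). If its reads over the shared bases were counted for LAMA5, with even coverage of ADRM1, they would equal 1.87 FPKM of LAMA5 in siANKRD35 and 1.45 FPKM in the control. The value for siANKRD35 exceeds the whole measured LAMA5 mean there, 1.74 FPKM. How many such reads were counted was not tested.

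LAMC1 measured 59.5, 65.0 and 60.8 FPKM in the siANKRD35 libraries, against 82.5, 82.5 and 82.9 FPKM in the control libraries. It stayed the highest member in both groups, and its change was −0.41 ± 0.0661 (SE; limma adjusted p = 0.00449). LAMB2 measured 9.70, 7.73 and 8.13 FPKM in the siANKRD35 libraries, against 13.8, 13.3 and 13.1 FPKM in the control libraries, with a change of −0.60 ± 0.0936 (SE; limma adjusted p = 0.00415). LAMB1 measured 34.5, 37.3 and 36.3 FPKM in the siANKRD35 libraries, against 38.5, 38.3 and 37.8 FPKM in the control libraries. The knockdown mean of LAMB1 differed from the control mean by −5.74%, and the change of −0.08 ± 0.0654 (SE; limma adjusted p = 0.351), with a 95% interval −0.24 to 0.07, did not pass the test (−0.29, adjusted p = 0.0207 with quantile normalization; 0.0207 to 0.57 over the alternatives).

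The change between siANKRD35 and its control also went with gene length over all genes. Spearman's rho between log2 change and length was −0.41 over 11885 genes, against 0.03 in the RBCK1 and 0.09 in the MITD1 comparison. Genes under 2000 bases had a median change of 0.26, and 4.89% of them were called lower; genes of 8000 bases or more had a median of −0.20, and 38.9% of them were called lower. The members are long, from 4688 bases for LAMB3 to 18104 for HSPG2, and 3 of those of 8000 bases or more also have a GC content of at least 55% (LAMA5, HSPG2 and AGRN). Among the 344 tested genes of that length and GC content the median change was −0.39 and 57.3% were called lower. The knockdown libraries also varied with GC content: the deviation of replicate 2 from its group mean correlated at −0.73 with GC content over genes, and those of replicates 1 and 3 at 0.67 and 0.44.

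Each library was therefore also corrected for a smooth trend on length and GC content. The same 7 members were then called lower, with smaller changes for the long ones, at −0.96 for HSPG2, −0.95 for AGRN, −0.38 for LAMA3 and −0.31 for LAMA5. Of all 11885 genes in this corrected fit 5199 were called, 2506 lower and 2693 higher. LAMB3, the shortest of the 8, was at −1.07, close to its uncorrected value. Over all alternatives the limma adjusted p of HSPG2, AGRN, LAMA3 and LAMB3 stayed between 3.23e-05 and 0.0139. LAMA5 lost its call with a correction for length alone, at −0.40 (adjusted p = 0.0765, the highest of 0.00102 to 0.0765 over its alternatives). LAMB1 had a change of 0.08 after the correction for length and GC content, of opposite sign to its uncorrected value and not called.

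**Figure D3:**
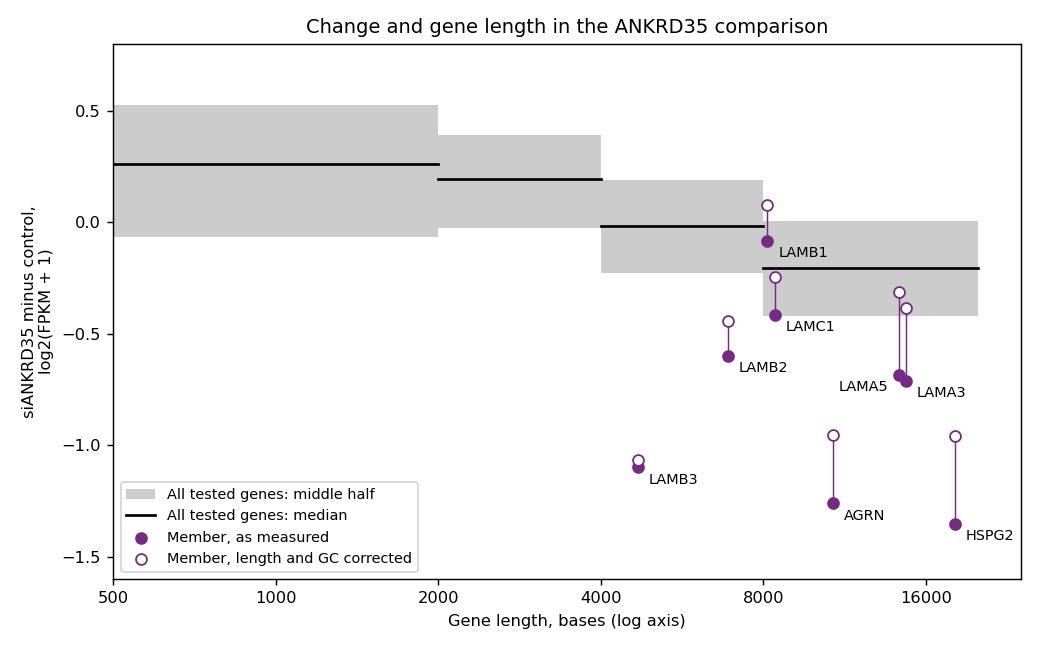
Log2 change of siANKRD35 against its control, on the log2(FPKM + 1) scale, by gene length in bases (log axis); grey boxes span the interquartile range of all tested genes in length bins, of which the outer ones are open-ended, black lines are the bin medians, and each member is shown as measured (filled) and after correction for length and GC content (open). All members but LAMB1 lie under the median of their length bin before correction, and LAMB3, HSPG2 and AGRN lie at −0.95 or lower after it.

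In the siMITD1 libraries the 3 beta chains were higher, while LAMA5 and perlecan were lower. Of the 8 members tested, 5 rose (LAMA3, LAMB1, LAMB2, LAMB3 and AGRN), 2 fell (LAMA5 and HSPG2) and LAMC1 did not pass the test. Over all 10415 genes tested 65.6% were called, 30% higher and 35.6% lower. The members' median change was 0.12 on the log2(FPKM + 1) scale, against −0.03 over all genes, and 7 of 8 had groups that did not overlap, which held for 70.4% of all genes.

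LAMB2 measured 36.8, 36.0 and 37.8 FPKM in the siMITD1 libraries, against 21.0, 21.0 and 22.0 FPKM in the control libraries. The knockdown mean was 72.7% higher, with a log2 change of 0.76 ± 0.0341 (SE; limma adjusted p = 4.57e-07), the most positive of any member in the 3 comparisons. LAMB3 measured 44.5, 40.5 and 42.5 FPKM in the siMITD1 libraries, against 27.2, 26.1 and 26.3 FPKM in the control libraries. Its change was 0.66 ± 0.0397 (SE; limma adjusted p = 2.07e-06), of opposite sign to that in shRBCK1. LAMB1 measured 74.95, 76.3 and 77.3 FPKM in the siMITD1 libraries, against 54.4, 53.1 and 56.0 FPKM in the control libraries, with a change of 0.48 ± 0.0294 (SE; limma adjusted p = 2.35e-06). Every knockdown library lay above every control library for all 3 beta chains.

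LAMA5 measured 3.69, 3.58 and 3.60 FPKM in the siMITD1 libraries, against 5.28, 5.15 and 5.11 FPKM in the control libraries, and the change was −0.42 ± 0.0470 (SE; limma adjusted p = 7.39e-05). ADRM1 on the other strand measured 77.8 ± 4.63 FPKM in siMITD1 and 78.1 ± 1.35 FPKM in its control (SD, n = 3 each), a change of −0.01 (limma adjusted p = 0.900). If its reads over the shared bases were counted for LAMA5, with even coverage of ADRM1, they would equal 1.33 FPKM of LAMA5 in each group. That is 36.7% of the LAMA5 mean in siMITD1 and 25.7% in its control. How many such reads were counted was not tested. LAMA3 measured 16.2, 16.6 and 15.8 FPKM in the siMITD1 libraries, against 15.6, 14.6 and 14.7 FPKM in the control libraries. The LAMA3 groups did not overlap, yet the change of 0.11 ± 0.0399 (SE; limma adjusted p = 0.0383) lost its call in 6 of 13 alternative settings, with adjusted p-values of 0.0106 to 0.213.

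HSPG2 measured 15.9, 14.5 and 14.8 FPKM in the siMITD1 libraries, against 19.4, 18.5 and 19.3 FPKM in the control libraries, with a change of −0.32 ± 0.0430 (SE; limma adjusted p = 0.000215). AGRN measured 52.4, 54.9 and 49.4 FPKM in the siMITD1 libraries, against 46.1, 49.5 and 47.4 FPKM in the control libraries. Its groups overlapped, and the change of 0.13 ± 0.0440 (SE; limma adjusted p = 0.0294) lost its call in 6 of 14 settings, with adjusted p-values of 0.000119 to 0.0998. LAMC1 measured 85.2, 86.1 and 88.6 FPKM in the siMITD1 libraries, against 89.7, 89.3 and 90.3 FPKM in the control libraries, a change of −0.05 ± 0.0255 (SE; limma adjusted p = 0.106) with a 95% interval −0.11 to 0.0068. The LAMC1 groups did not overlap, and voom on reads called it lower at −0.05 (adjusted p = 0.0447, the lowest of 0.0447 to 0.624 over the alternatives).

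Set side by side, HSPG2 was the one member called lower in all 3 comparisons, with changes of −0.42, −1.35 and −0.32 for RBCK1, ANKRD35 and MITD1. LAMB3 was called in all 3 as well, at −0.66, −1.10 and 0.66, and LAMA5 at 0.34, −0.69 and −0.42. LAMB1 and LAMB3 were both lower in shRBCK1 and both higher in siMITD1, while LAMA5 was higher in shRBCK1 and lower in siMITD1. The 3 comparisons share no libraries. The differences between knockdowns were not tested, because the tables were normalized separately.

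**Figure D4:**
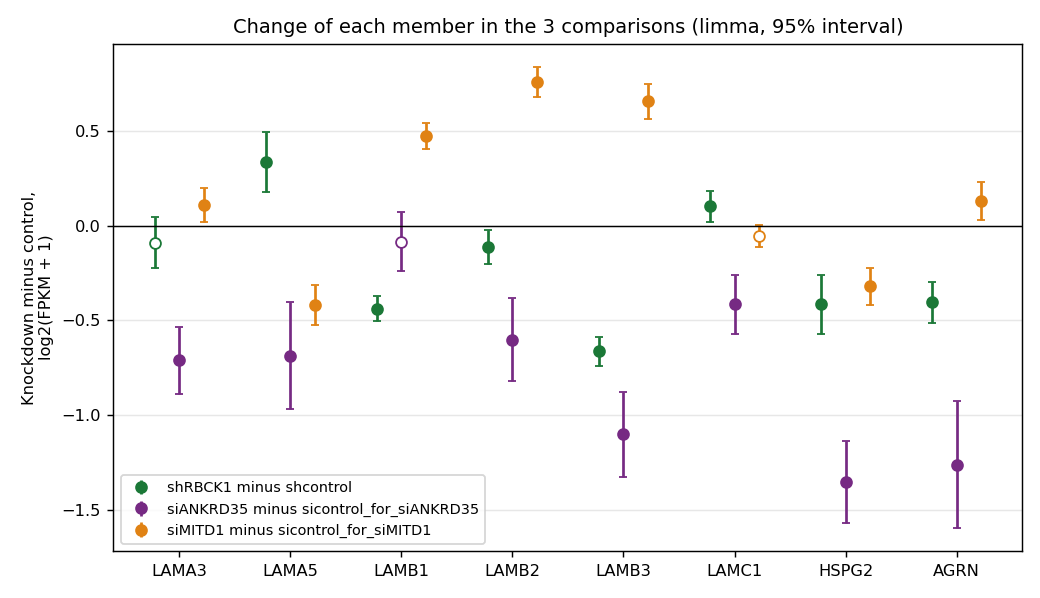
Change of each tested member, knockdown minus own control on the log2(FPKM + 1) scale, with the 95% interval from limma; filled circles passed an adjusted p under 0.05 and open circles did not. HSPG2 lies under 0 in all 3 comparisons, from −1.35 to −0.32, while LAMB1, LAMB2 and LAMB3 lie under 0 in shRBCK1 and above 0 in siMITD1.

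The alpha and the beta chains were also expressed as shares of the summed members of their class within each library, where scaling between libraries cancels. LAMA1, LAMA2 and LAMB4 are not members and are not in these sums. LAMA1 measured 2.90 ± 0.0877 FPKM in the control of siANKRD35 (SD, n = 3), so the LAMA5 shares there are not shares of all alpha chains. LAMA5 made up 20.7%, 24.7% and 24.3% of the summed FPKM of LAMA3, LAMA4 and LAMA5 in the shRBCK1 libraries, against 17.1%, 18.3% and 17.0% in shcontrol. In siMITD1 the LAMA5 share was 18.2% ± 0.513, against 25.7% ± 0.415 in its control (SD, n = 3 each). It thus moved up in one knockdown and down in the other, without overlap in either (exact permutation test, two-sided, p = 0.1 in each, the smallest that 3 against 3 allows). In siANKRD35 it was 50.7% ± 6.22, against 50.2% ± 0.932 in the control, with overlapping groups (exact permutation p = 1).

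LAMB1 made up 45.2% ± 0.783 of the summed LAMB1, LAMB2 and LAMB3 FPKM in shRBCK1, against 43.3% ± 0.691 in shcontrol. The LAMB1 share was 75.6% ± 2.68 in siANKRD35, against 64.3% ± 0.111 in its control, and 49.0% ± 0.990 in siMITD1, against 53.2% ± 0.413 in its control. These 3 differences were each without overlap (exact permutation test, two-sided, p = 0.1 in each, the smallest possible). LAMB3 took 6.56% ± 0.903 of the beta chains in siANKRD35, against 13.1% ± 0.318 in the control, and 41.2% ± 0.559 in shRBCK1, against 46.3% ± 0.632 in shcontrol.

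The summed beta chains, LAMB4 included, came to 140.2 ± 0.993 FPKM in shRBCK1, against 199 ± 2.53 FPKM in shcontrol, and to 156 ± 2.44 FPKM in siMITD1, against 102 ± 2.001 FPKM in its control. The summed alpha chains, LAMA1 and LAMA2 included, overlapped between groups, at 20.9 ± 1.29 FPKM in shRBCK1 against 21.0 ± 0.472 FPKM in shcontrol, and at 20.1 ± 0.448 FPKM in siMITD1 against 20.3 ± 0.632 FPKM in its control. In siANKRD35 the alpha and the beta sums were lower without overlap, with alpha chains at 5.32 ± 0.217 FPKM, against 10.2 ± 0.270 FPKM in its control, and beta chains at 47.7 ± 0.298 FPKM, against 59.4 ± 0.703 FPKM in its control.

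**Figure D5:**
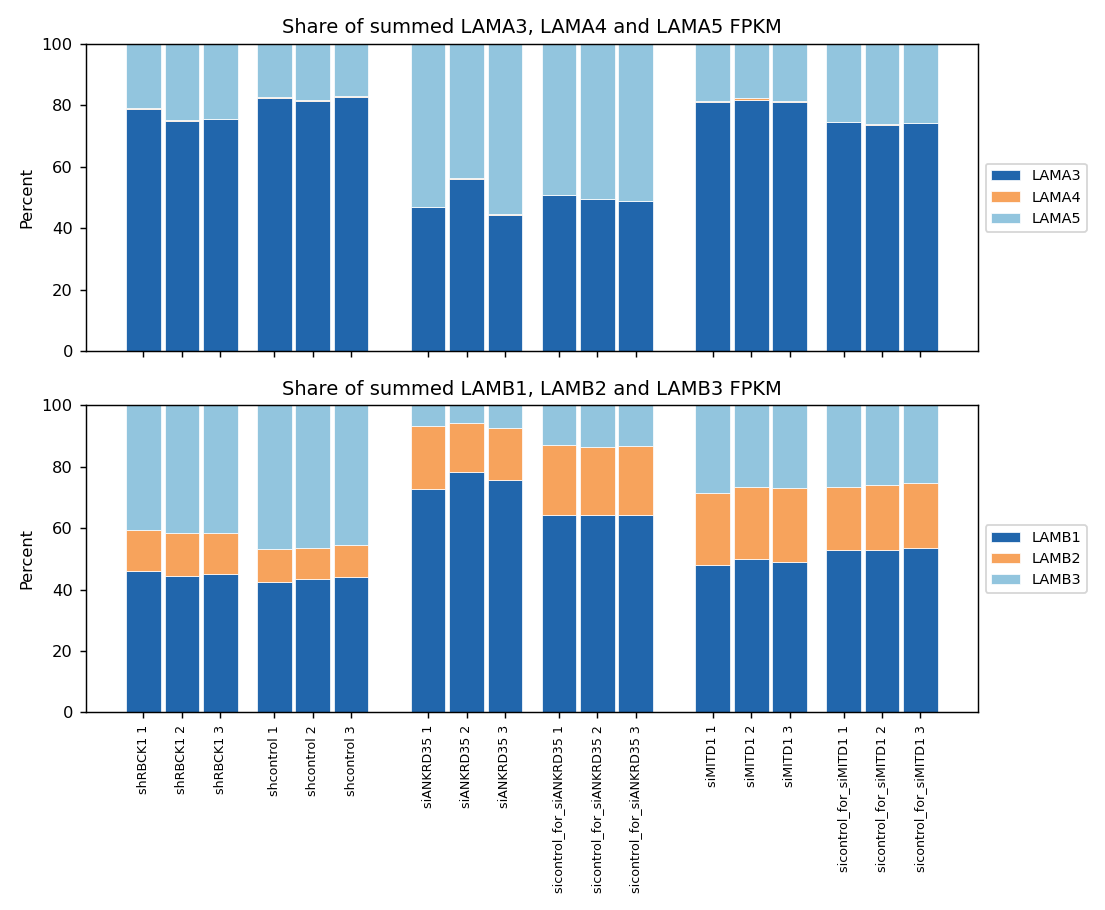
Share (percent, bars from 0 to 100) of each alpha chain and each beta chain in the summed FPKM of its members, for each of the 18 libraries with knockdown libraries left of their controls. The LAMA5 share is larger in shRBCK1 and smaller in siMITD1 than in their own control libraries, and LAMB1 takes 72.8% to 78.2% of the beta chains in siANKRD35.

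The genes whose pattern was most like each member, by Pearson's r of log2(FPKM + 1) centred within each table over the 18 libraries among 5278 genes, are given as a description; the points share tables and groups. LAMC1 was closest to the fibronectin gene FN1 (r = 0.991) and the versican gene VCAN (r = 0.972), both matrix genes. AGRN was closest to ITGA3, the alpha subunit of a laminin receptor (r = 0.980), and the kinase gene ABL1 (r = 0.979). LAMB1 was closest to DDIT3, a transcription factor of the stress response, and BTG1 (r = 0.978 for each). LAMA3 was closest to the cytoskeletal genes SPTAN1 (r = 0.980) and TLN1 (r = 0.976). The nearest genes of HSPG2 were BAZ2A (r = 0.985) and HCFC1 (r = 0.983), of LAMB3 SMG5 (r = 0.982) and SAMD4A (r = 0.976), of LAMB2 KIAA1522 (r = 0.981) and GOLGA3 (r = 0.975), and of LAMA5 GTF3C1 (r = 0.963) and SLC6A8 (r = 0.961).

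The other genes of the pathway give the setting of these changes, and are described by counts and median changes on the log2(FPKM + 1) scale, in the order RBCK1, ANKRD35 and MITD1. Among all genes tested, 24.1% were called higher and 24.9% lower in shRBCK1, 19.4% higher and 16.9% lower in siANKRD35, and 30% higher and 35.6% lower in siMITD1, with medians of 0.01, 0.03 and −0.03. In siANKRD35 genes of 8000 bases or more had 38.9% called lower and a median of −0.20. Those also of at least 55% GC had 57.3% and −0.39. The lists were not matched for length or GC content, so their siANKRD35 counts cannot be told apart from that trend. LAMA1, another laminin alpha chain, fell in siANKRD35 (1.36 ± 0.136 FPKM against 2.90 ± 0.0877 FPKM in its control). Of 28 further basement membrane genes, 12 were tested in the RBCK1 comparison (1 higher, 4 lower), 15 in ANKRD35 (2 higher, 8 lower) and 12 in MITD1 (2 higher, 8 lower), with medians of −0.10, −0.33 and −0.22. TINAGL1, a secreted basement membrane protein, fell in shRBCK1 (28.96 ± 1.60 FPKM against 43.8 ± 1.32 FPKM in shcontrol) and in siMITD1 (54.5 ± 1.25 FPKM against 131 ± 1.03 FPKM in its control), and in siANKRD35 it measured 34.9 ± 4.65 FPKM against 43.9 ± 1.95 FPKM in its control, with an adjusted p just under the threshold (limma, adjusted p = 0.0471). The type IV collagen genes COL4A1 and COL4A2 fell in siANKRD35 (12.6 ± 0.547 FPKM against 31.9 ± 1.09 FPKM in its control, and 13.0 ± 2.74 FPKM against 29.05 ± 1.23 FPKM in its control), while in siMITD1 COL4A1 rose (45.5 ± 0.174 FPKM against 29.5 ± 0.692 FPKM in its control) and COL4A2 fell (35.1 ± 0.244 FPKM against 39.1 ± 0.425 FPKM in its control).

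Of 17 laminin, agrin and perlecan receptors, 3 of 14 tested rose and 4 fell in shRBCK1, 3 of 15 rose and 6 fell in siANKRD35, and 6 of 14 rose and 2 fell in siMITD1 (medians −0.05, −0.13 and 0.04). ITGB1, the beta subunit of most laminin-binding integrins, rose in shRBCK1 (248 ± 4.15 FPKM against 206 ± 1.99 FPKM in shcontrol) and in siMITD1 (315 ± 5.65 FPKM against 265 ± 2.45 FPKM in its control), and was not called in siANKRD35 (268 ± 30.4 FPKM against 243 ± 5.63 FPKM in its control). DAG1, which encodes dystroglycan, and LRP4, the agrin receptor of muscle, fell in siANKRD35 (15.6 ± 0.150 FPKM against 20.3 ± 0.0994 FPKM in its control, and 1.998 ± 0.235 FPKM against 4.27 ± 0.0285 FPKM in its control), while DAG1 rose in siMITD1 (29.1 ± 1.04 FPKM against 23.5 ± 0.153 FPKM in its control). Of 15 genes that build the laminin-binding sugar of dystroglycan, 4 of 11 tested rose and 2 fell in shRBCK1, 2 of 10 rose and 2 fell in siANKRD35, and 4 of 10 rose and 5 fell in siMITD1 (medians −0.05, −0.03 and −0.16). B4GAT1, which primes that sugar, rose in shRBCK1 (14.9 ± 1.33 FPKM against 10.6 ± 0.573 FPKM in shcontrol) and in siANKRD35 (17.3 ± 0.888 FPKM against 11.6 ± 0.990 FPKM in its control), and fell in siMITD1 (24.5 ± 0.729 FPKM against 31.3 ± 2.16 FPKM in its control). With the length correction the B4GAT1 change in siANKRD35 was 0.26 and lost its call (limma adjusted p = 0.0526). POMGNT2 likewise fell in siMITD1 (7.13 ± 0.374 FPKM against 16.3 ± 0.472 FPKM in its control) and was called higher in shRBCK1 (10.3 ± 0.605 FPKM against 9.09 ± 0.121 FPKM in shcontrol) and in siANKRD35 (7.29 ± 1.03 FPKM against 5.38 ± 0.473 FPKM in its control). The limma adjusted p of POMGNT2 was 0.0279 in shRBCK1 and 0.0396 in siANKRD35, both near the threshold. Its length-corrected change in siANKRD35 is not given here.

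Of 20 heparan sulfate enzymes, which build the chains of perlecan and agrin, 4 of 12 tested rose and 3 fell in shRBCK1, 2 of 15 rose and 3 fell in siANKRD35, and 7 of 12 rose and 3 fell in siMITD1 (medians 0.05, 0.06 and 0.13). EXT1, a chain polymerase, fell in shRBCK1 (26.7 ± 0.410 FPKM against 38.3 ± 1.38 FPKM in shcontrol) and in siANKRD35 (15.2 ± 1.58 FPKM against 21.9 ± 0.965 FPKM in its control), and rose in siMITD1 (29.6 ± 1.16 FPKM against 27.1 ± 1.13 FPKM in its control). The sulfotransferase gene NDST1 fell in shRBCK1 (41.3 ± 1.87 FPKM against 45.8 ± 1.16 FPKM in shcontrol), in siANKRD35 (12.7 ± 1.25 FPKM against 22.7 ± 0.768 FPKM in its control) and in siMITD1 (61.4 ± 1.66 FPKM against 77.4 ± 0.536 FPKM in its control). Of 13 collagen-modifying and secretion genes, 1 of 12 tested rose and 5 fell in shRBCK1, 1 of 13 rose and 4 fell in siANKRD35, and 7 of 12 rose and 2 fell in siMITD1 (medians −0.09, −0.13 and 0.20). PLOD2, a collagen lysyl hydroxylase, fell in shRBCK1 (58.3 ± 1.37 FPKM against 75.2 ± 1.96 FPKM in shcontrol) and rose in siMITD1 (167 ± 4.004 FPKM against 84.7 ± 1.30 FPKM in its control); in siANKRD35 it was not called (14.0 ± 2.91 FPKM against 15.1 ± 0.294 FPKM in its control). Of 16 remodelling genes, 3 of 13 tested rose and 4 fell in shRBCK1, 4 of 12 rose and 4 fell in siANKRD35, and 5 of 13 rose and 5 fell in siMITD1 (medians −0.09, 0.06 and −0.01). MMP2, a gelatinase that cleaves type IV collagen, rose in shRBCK1 (99.4 ± 2.01 FPKM against 70.9 ± 2.83 FPKM in shcontrol) and fell in siMITD1 (80.6 ± 1.30 FPKM against 142 ± 1.498 FPKM in its control), while all 6 libraries of the ANKRD35 table list it at 0.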

How the data were processed

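Directional libraries were prepared from column-purified total RNA, per the labels' protocols. The deposited values are FPKM, used as the authors made them, in 3 tables that were normalized separately. The submitters' processing notes name mm10, a mouse build, whereas in the 2 tables with identifiers 58735 of 58735 have the start and end of human GENCODE 29 (GRCh38). Of aligner, counting tool and counting strand nothing is stated in the sources used here. The ANKRD35 table holds 6 further value columns of no sample of the series, which were not used. Libraries were assigned to groups by their titles.

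Reads were recovered as FPKM times gene length over a step per library, whole within 0.01 reads for the RBCK1 and ANKRD35 tables. For the MITD1 table, where lengths had to be taken from another table, they were recovered for 92.6% of 18028 expressed genes, all 6 libraries whole within 0.05 reads, LAMA3 and HSPG2 not among them. FPKM without stated counts stayed the basis of the tests: limma-trend (limma 3.58.1, R 4.3.3) on log2(FPKM + 1), on the 6 libraries of each table, for genes that reached 1 FPKM in at least 3 libraries, two-sided, with Benjamini-Hochberg adjustment over all genes tested and calls at an adjusted p under 0.05. Such a fold change understates that of low genes. Chain shares were compared with exact permutation tests in SciPy 1.17.1. Length and GC trends were fitted with mgcv 1.9.3.

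The members and lists were chosen with earlier results of these data known, so no p is given over a list. The members were named in every comparison, the knocked-down genes as checks, up to 3 called genes per list with the smallest adjusted p were eligible to be named in a comparison (calls of most genes so named in the other comparisons are given too), and the 2 genes most like each member among those averaging 5 FPKM or more per table. ADRM1 was named for its overlap, and NID1, NID2, THY1, CDH6 and CA9 after their values were seen. One gene of the lists is not reported here. In simulated data with the spread of these libraries the test recovered 91%, 50% and 92% of genes changed by 0.5 on the log2 scale, and 100%, 86% and 99% of those changed by 1, in the RBCK1, ANKRD35 and MITD1 comparisons. The changed genes, 100 at each size, were all above 5 FPKM in the control. These rates thus do not cover LAMA5 in shcontrol, or LAMA3 and LAMA5 in the control of siANKRD35, which were lower. Far more genes were called in the data than were changed in the simulation, so the adjusted p-values differ between them.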

Additional observations from a re-analysis of the deposited data

How the results depend on the processing

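The alternatives were a pseudocount of 0.1, no filter, quantile normalization, upper quartile scaling, corrections for gene length and for length with GC content, voom on recovered reads, a replicate block and leaving out each library. Of 334 member results under an alternative, 298 kept their direction and side of the threshold, 32 lost and 2 gained a call and 2 changed sign; the cause was not tested. The sign changes were those of LAMB1 in siANKRD35, to 0.0539 with the length correction and 0.0777 with length and GC. MITD1 in shRBCK1, not called, was at 0.0107 with the length correction, 0.00646 with upper quartile scaling and 0.0161 with voom. Members called lower in shRBCK1 numbered 4, against 5, in the 12 of 14 alternatives in which LAMB2 lost its call. Members called higher in shRBCK1 numbered 1 without a filter or with the replicate block, against 2, and 1 to 2 with a library left out. In siMITD1 they numbered 3 with the length correction, against 5, and 3 to 5 with a library left out. Genes called higher in siANKRD35 numbered 1530 without a filter and 1464 with upper quartile scaling, against 2305. With a library left out, 2267 to 6536 genes were called there (6536 without siANKRD35 replicate 2), 1167 to 3516 higher and 1100 to 3020 lower, while 7 members were lower each time. Of the genes called in siANKRD35, 53.5% were higher, against 34.5% with upper quartile scaling and 39.1% with voom; in shRBCK1 49.2%, against 59.2% and 61.1%. The LAMB1 share difference in siANKRD35 was 9.26 percentage points by reads, against 11.2. The LAMA5 share difference in siANKRD35, 0.519 points, ran from −1.83 to 4.05 with a library left out, at −0.662 without replicate 1 and −1.83 without replicate 3; by reads it was not run in siMITD1, where LAMA3 reads were not recovered. Same-numbered libraries did not deviate together (r of −0.01, 0.01 and 0.03 for RBCK1, 0.18, 0.11 and −0.09 for ANKRD35, 0.10, 0.03 and −0.00 for MITD1), so the numbers were not taken as pairs; with the replicate block 5347, 4139 and 6859 genes were called in RBCK1, ANKRD35 and MITD1, against 6000, 4312 and 6835. Calls near the threshold (LAMB2 and LAMC1 in shRBCK1, LAMA3 and AGRN in siMITD1) rest on 3 libraries a group, and LAMA5 on 306 to 918 reads in the ANKRD35 table.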
